A study of Mus musculus with 18 samples.

Results

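The dual-specificity phosphatases described here are 10 mouse genes chosen by name for the family of enzymes that switch off mitogen-activated protein (MAP) kinases: Dusp1, Dusp2, Dusp4, Dusp5, Dusp6, Dusp7, Dusp8, Dusp10, Dusp14 and Dusp16. They were represented by 16 probe sets on the array, of which 13 passed the filter on low signals. All 10 genes kept at least 1 probe set and stood among the 11547 genes tested. Dusp8 reached the median signal of its array on 4 of 18 arrays, Dusp10 on 12 and Dusp14 on 15, and the other genes on all 18.

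The samples were RAW264.7 cells, an established line of mouse macrophages, and no primary cells were compared. Cells received vehicle (0.1% DMSO), 10 ug/mL of a sub-fraction from the plant Hypericum perforatum, or the 4-component system (4CS), which combined amentoflavone at 0.07 uM, quercetin at 0.08 uM, chlorogenic acid at 0.2 uM and pseudohypericin at 0.03 uM. Each was given for 8 h alone or with 10 ug/mL lipopolysaccharide (LPS), the bacterial cell wall component sensed by Toll-like receptors, and all groups were treated in the dark and then had 30 min of room light. The 6 groups had 3 arrays each, and the labels do not say whether these came from separate cultures. The p-values therefore measure only how far these samples spread, and that spread may be technical.

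MAP kinases (ERK, JNK and p38) are switched on by phosphorylation of a threonine and a tyrosine in their activation loop. Dual-specificity phosphatases remove both phosphates and so end the signal. In macrophages the pathways lie downstream of Toll-like receptors, and several of the phosphatase genes are themselves targets of the signal they end. Members differ in location and in the kinases they act on: Dusp1, Dusp2, Dusp4 and Dusp5 encode nuclear enzymes, Dusp6 and Dusp7 cytoplasmic enzymes that act on ERK, and Dusp8, Dusp10 and Dusp16 enzymes that act on JNK and p38. Dusp14 encodes a small enzyme without the kinase-binding domain of the others.

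All levels are MAS5 signal intensities, a brightness with no unit, and differences are on the log2 scale of group means ± standard error. Array medians lay between 52.1 and 66.8, and arrays of a group correlated at 0.97 to 0.979 over the 11547 genes tested. Of the macrophage markers, 8 of 9 with a probe set were at or above the array median on all 18 arrays, and the mannose receptor gene Mrc1 on none. Of 19 markers of other cell types, 0 were above it on all arrays and 10 on none. Their summed signal was 392 to 924 per array, against 70200 to 105000 for the macrophage markers. With LPS the sum of the other markers was 640 to 924 in vehicle cells, against 454 to 601 without. It was 532 to 734 against 392 to 549 in fraction cells, and 596 to 623 against 523 to 665 in 4CS cells. In vehicle cells the macrophage sum was also higher with LPS, at 88700 to 96300 against 70200 to 85100. The part of these sums in the results was not tested. In these bulk extracts, fewer cells expressing a gene and less RNA per cell cannot be told apart.

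The stretches before the transcription start are shown for the members that held a searched motif, among them Dusp5, the member LPS raised the most. RefSeq promoters (GRCm38.p6) were found for 9 of the 10 genes, and the 250 bases before the start were searched on both strands. Capitals mark the cAMP response element (TGACGTCA, bound by CREB family factors) in Dusp1 and Dusp8, and a pair of adjoining CArG boxes (bound by serum response factor) in Dusp5.
Dusp1, chr17:26508588-26508635, minus strand: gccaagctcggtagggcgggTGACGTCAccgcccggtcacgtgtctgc
Dusp5, chr19:53529043-53529102, plus strand: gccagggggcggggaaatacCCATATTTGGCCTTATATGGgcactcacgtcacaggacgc
Dusp8, chr7:142095320-142095411, minus strand: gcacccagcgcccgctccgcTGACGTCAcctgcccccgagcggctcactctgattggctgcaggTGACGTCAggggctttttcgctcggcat

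The Dusp1 element lay 143 to 136 bases before the start, and the Dusp8 elements 107 to 100 and 63 to 56 bases before the start of its promoter entry. That Dusp8 start lay inside the gene span given for Dusp8 below (chr7:142079487-142095907). The Dusp8 elements therefore lay within that span, not before its 5' end. The Dusp5 boxes spanned 82 to 63 bases before the start and did not overlap each other. Among the 32851 promoters of the table, 1.55% held the cAMP response element and 1.47% a CArG box. An AP-1 site (TGANTCA) was present in 6.75% of promoters and an NF-kB site in 3.9%, and neither was in the 250 bases of the 9 members searched. These matches describe letters only, and binding was not measured. The gene positions given with each member are of the same build.

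The plot of signals by array shows 3 broad patterns. Dusp2, Dusp5 and Dusp16 stood high in every group given LPS. Dusp4 and Dusp6 had their highest means in the fraction groups, with or without LPS. Dusp7 was high in every group without LPS, and Dusp14 in the vehicle and 4CS groups without LPS.

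**Figure D1:**
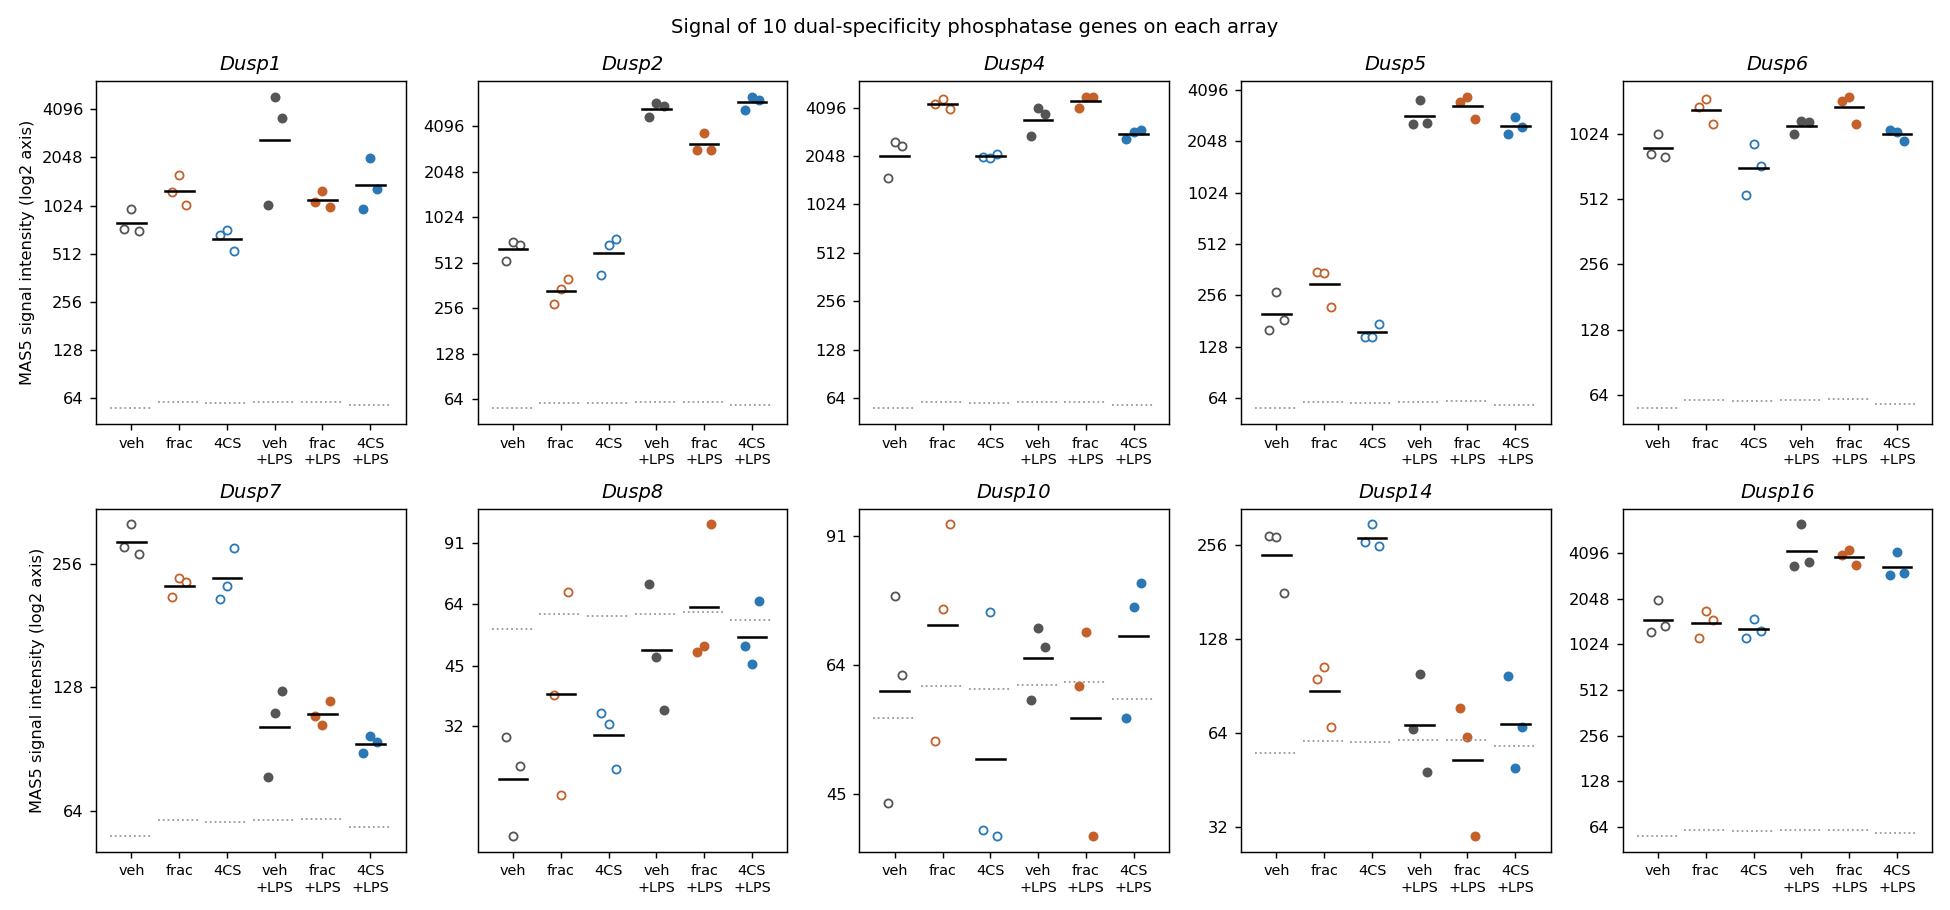
Each panel plots the MAS5 signal of one gene on a log2 axis, with 1 point per array (open without LPS, filled with LPS), a black bar at the mean of the log2 values and a dotted line at the mean array median. Dusp5 moved from 145 to 349 without LPS to 2262 to 3747 with it, while most Dusp8 and some Dusp10 and Dusp14 points lay at or under the dotted line.

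LPS in vehicle cells raised 5 of the 10 members and lowered 2, at a background of 10.1% of all tested genes higher and 21.8% lower. The median difference of the members was 0.90, beside -0.07 for all genes. The genes of the nuclear enzymes, Dusp1, Dusp2, Dusp4 and Dusp5, all rose, as did Dusp16, while Dusp7 and Dusp14 fell. Scaling moved the background: median centring shifted the median of all genes by 0.19 and turned it to 20.5% higher and 11.7% lower, and the same 7 members were called in the same directions, with Dusp6 added among the higher.

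Dusp5 (chr19:53529145-53541809), which encodes a nuclear phosphatase that acts on ERK, had signals of 160.4, 266 and 183 on the vehicle arrays. With LPS they were 2578, 3587 and 2635. The arrays with LPS all stood far above those without, a rise of 14.6-fold (3.87 ± 0.20, limma adjusted p = 3.97e-11, n = 3 per group).

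Dusp2 (chr2:127336159-127338377), the gene of a nuclear phosphatase known from activated immune cells, went from 526, 702 and 672 to 4696, 5864 and 5628. The ranges were well apart, and the rise was 8.55-fold (3.10 ± 0.18, adjusted p = 3.12e-10). Dusp16 (chr6:134715468-134807063), whose product acts mainly on JNK, went from 1229, 2008 and 1349 to 3389.5, 6362 and 3573. All arrays with LPS were above all without, with array 2 the highest in both groups, and the rise was 2.85-fold (1.51 ± 0.22, adjusted p = 2.89e-05). Its second kept probe set gave 1.25 ± 0.31 (adjusted p = 0.00489).

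Dusp1 (chr17:26505591-26508472), the gene of a nuclear phosphatase that acts on p38, JNK and ERK, had 736, 972 and 706 without LPS and 1034, 4906 and 3627 with it. Array 1 with LPS was just above the highest array without LPS, and the other pair was several-fold higher. The rise was 3.31-fold (1.73 ± 0.38, adjusted p = 0.00143). Without that array the difference was 2.40, and it was 1.28 without array 2 (adjusted p = 0.0138).

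Dusp4 (chr8:34807610-34819894), which encodes a nuclear phosphatase of ERK and JNK, had 1489, 2491 and 2363 without LPS. With LPS it had 2709, 4043 and 3747, so the ranges did not overlap, although array 1 was the lowest in both. The rise was 1.67-fold (0.74 ± 0.16, adjusted p = 0.00111). Dusp6 (chr10:99263231-99267489), the gene of a cytoplasmic phosphatase that acts on ERK, had 828, 1015 and 796 without LPS and 1016, 1171 and 1156 with it. The ranges touched without overlapping, and the difference did not pass (0.35 ± 0.16, adjusted p = 0.11). After median centring it did (0.53, adjusted p = 0.0132).

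Dusp7 (chr9:106368560-106375724), also a cytoplasmic ERK phosphatase gene, fell from 281, 319 and 271 to 77.4, 111 and 125. Every array with LPS was under every array without, a fall of 2.83-fold (-1.50 ± 0.18, adjusted p = 3.29e-06). Its brightest probe set is of a kind open to cross-hybridization. The 2 other probe sets fell by less, at -0.78 ± 0.20 (adjusted p = 0.00786) and -0.70 ± 0.23 (adjusted p = 0.0341).

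Dusp14 (chr11:84048033-84069256) fell from 274, 271 and 180.0 to 65.9, 99.2 and 48.0. The groups were apart, with 1 of the arrays with LPS under its array median, and the fall was 3.49-fold (-1.80 ± 0.34, adjusted p = 0.000456). Dusp8 (chr7:142079487-142095907) had 17.0 to 30.1 without LPS and 35.0 to 72.0 with it. All but 1 of those 6 values were under the array median, so no fold is given (1.06 ± 0.49, adjusted p = 0.105). Dusp10 (chr1:184034381-184075636), which encodes a phosphatase of JNK and p38, overlapped between 44.0 to 77.3 and 58.2 to 70.8 (0.13 ± 0.35, adjusted p = 0.817).

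In fraction cells LPS raised 3 members and lowered 1, at a background of 11.5% higher and 25.8% lower (22.4% and 14.7% after median centring, a shift of 0.19). The members' median was 0.06, beside -0.11 for all genes. Dusp2, Dusp5 and Dusp16 rose and Dusp7 fell. Dusp5 went from 349, 344 and 217 to 3481, 3747 and 2751, which was 11.1-fold (3.48 ± 0.20, adjusted p = 1.13e-10). Dusp2 rose 9.34-fold (3.22 ± 0.18) and Dusp16 2.73-fold (1.45 ± 0.22, adjusted p = 3.1e-05), and the second Dusp16 probe set gave 2.20 ± 0.31. Dusp7 fell 2.05-fold (-1.04 ± 0.18, adjusted p = 0.000139), with its other probe sets at -0.80 ± 0.20 and -0.33 ± 0.23 (adjusted p = 0.00505 and 0.32).

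The Dusp1 and Dusp4 signals of fraction cells overlapped between the arrays with and without LPS. Dusp1 had 1250.0, 1584 and 1034 without LPS and 1072, 1261 and 1001 with it (-0.20 ± 0.38, interval -0.98 to 0.59, adjusted p = 0.721). Dusp4 had 4286, 4646 and 3986 without and 4084, 4786 and 4749.8 with LPS (adjusted p = 0.75, interval -0.25 to 0.40). Dusp6 likewise overlapped (0.05 ± 0.16, adjusted p = 0.854), and Dusp14 was at 66.8 to 104 without and 30.0 to 76.8 with LPS (-0.74 ± 0.34, adjusted p = 0.102).

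In 4CS cells 6 members rose and 2 fell with LPS, at a background of 8.32% higher and 16.3% lower (14.6% and 9.46% after median centring, a shift of 0.13). The members' median was 0.66, beside -0.07 for all genes. Dusp5 went from 146, 145 and 174 to 2262, 2859 and 2475, which was 16.3-fold (4.03 ± 0.20, adjusted p = 2.04e-11). Dusp2 rose by 3.32 ± 0.18 on the log2 scale and Dusp16 2.6-fold (1.38 ± 0.22). Dusp7 fell 2.54-fold (-1.34 ± 0.18) and Dusp14 3.93-fold (-1.98 ± 0.34, adjusted p = 0.000266), and 1 of the other Dusp7 probe sets did not pass (-0.51 ± 0.23, adjusted p = 0.144).

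Dusp1, Dusp4 and Dusp6 passed in 4CS cells by a small margin. Dusp1 went from 666, 721 and 531 to 972, 2035 and 1298 (1.11 ± 0.38, adjusted p = 0.0358). The groups did not overlap, but array 2 with LPS stood high, and without it the difference was 0.82 (adjusted p = 0.177). Dusp4 went from 2016, 1992 and 2113 to 2618, 2878 and 2982 (0.47 ± 0.16, adjusted p = 0.0338), and Dusp6 from 536, 918 and 724 to 1064, 1038 and 945 (0.52 ± 0.16, adjusted p = 0.0228). With single compared arrays left out, Dusp1 and Dusp4 each lost the call in 5 of 6 cases and Dusp6 in 3 of 6. Dusp1 and Dusp4 did not pass with no eBayes trend either (adjusted p = 0.0834 and 0.0722). Dusp6 was at 0.32 without 4CS array 1 (adjusted p = 0.153) and at 0.28 without the 6 arrays numbered 1 (adjusted p = 0.304).

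**Figure D2:**
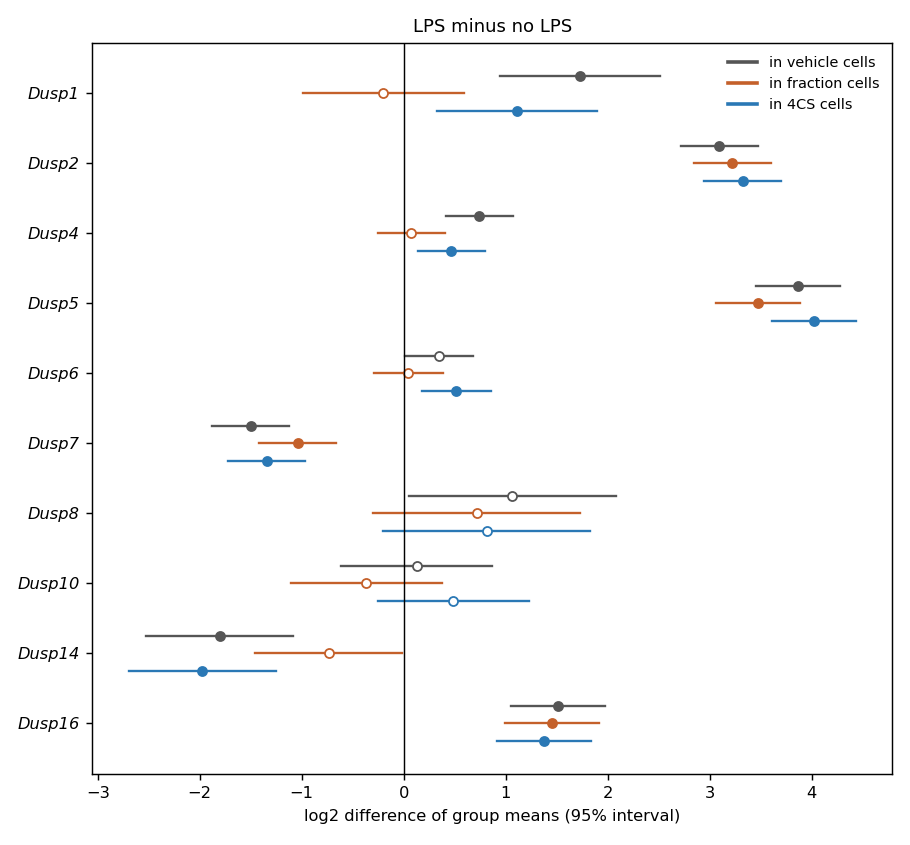
Log2 differences between LPS and no LPS are plotted for each gene, in vehicle (grey), fraction (orange) and 4CS cells (blue), with 95% intervals and filled points for an adjusted p under 0.05. Dusp2, Dusp5 and Dusp16 lie to the right of 0 and Dusp7 to the left in all 3, while Dusp1 is at 1.73 in vehicle cells and -0.20 in fraction cells.

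Whether the LPS response differed between fraction and vehicle cells was tested as an interaction, which was called for 0.892% of all genes in the higher and 1.25% in the lower direction. None of the 10 members passed in the main fit, which leaves out the replicate number, and 3 had an unadjusted p under 0.05. Dusp1 had the largest size (-1.93 ± 0.53, interval -3.04 to -0.82, adjusted p = 0.0689), followed by Dusp14 (1.07 ± 0.49, adjusted p = 0.336) and Dusp4 (-0.67 ± 0.22, adjusted p = 0.15). Over the 26 alternatives the Dusp1 value lay from -2.60 to -1.48, and both ends came from leaving out an array of the vehicle group with LPS. Without array 1 of that group, Dusp1 was at -2.60 (adjusted p = 0.000134) and Dusp4 at -0.84 (adjusted p = 0.0313). The smallest sizes were -1.48 for Dusp1 without array 2 of that group (adjusted p = 0.173) and -0.43 for Dusp4 without vehicle array 1 (adjusted p = 0.254). Dusp1 was not called in 23 of 26 alternatives, and Dusp4 in 24 of 26. With all 6 arrays numbered 1 left out, Dusp1 was at -2.54 (adjusted p = 0.00221). With the replicate number as a block, Dusp1 (adjusted p = 0.0117) and Dusp4 (adjusted p = 0.0279) passed. For Dusp2, Dusp5 and Dusp16 the interactions were 0.13, -0.39 and -0.06, with intervals of -0.41 to 0.67, -0.97 to 0.18 and -0.71 to 0.59. The second Dusp16 probe set went the other way, at 0.95 ± 0.43 (interval 0.04 to 1.85, adjusted p = 0.39). The interaction of 4CS with LPS was called by limma for 0% of genes (412 had an unadjusted p under 0.05) and for none of the members, the largest being Dusp1 at -0.62 ± 0.53.

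**Figure D3:**
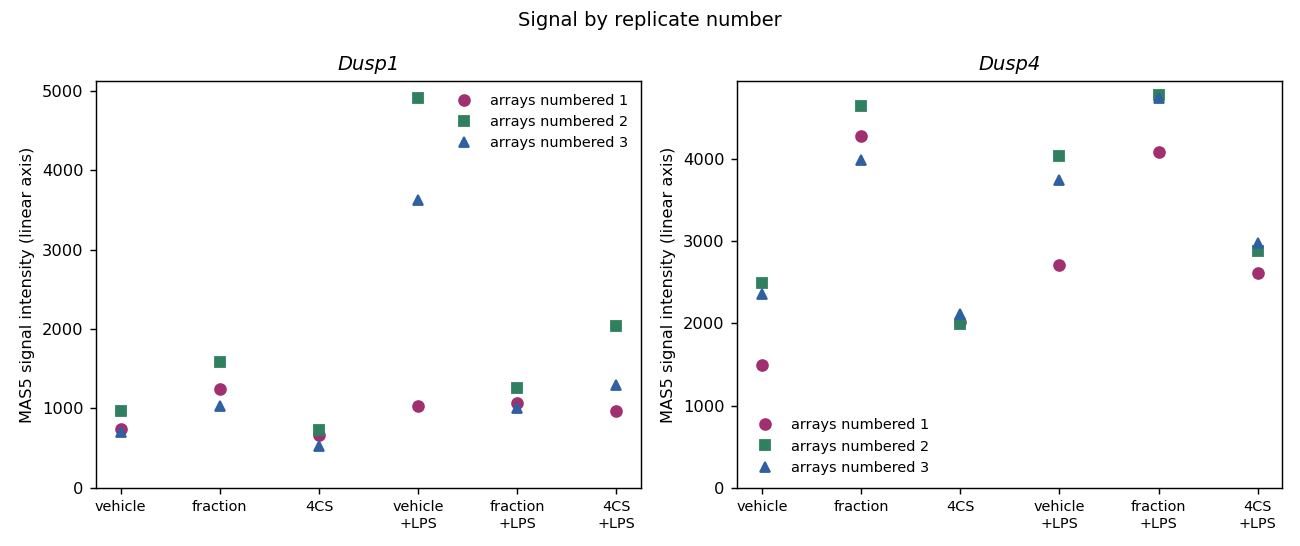
Signals of Dusp1 and Dusp4 are plotted on a linear axis for each group, with one symbol for each replicate number. The vehicle array numbered 1 with LPS had a Dusp1 signal of 1034, beside 4906 and 3627 for the others, and the Dusp4 signal of the arrays numbered 1 was the lowest in the vehicle groups with and without LPS.

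In the vehicle group with LPS, array 1 was the lowest for 8 of the 10 members and array 2 the highest for 8. Over all 60 sets of 1 gene in 1 group, array 1 was the lowest in 30 and array 2 the highest in 39. The labels do not say what a replicate number shares.

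The fraction alone raised 3 members and lowered 2 relative to vehicle, at a background of 15.9% higher and 15.3% lower. The members' median was 0.42, beside 0.02 for all genes. Dusp4, Dusp5 and Dusp6 rose, and Dusp2 and Dusp14 fell. Dusp4 had 4286, 4646 and 3986 on the fraction arrays, against 1489, 2491 and 2363 with vehicle. These groups were well apart, a rise of 2.08-fold (1.06 ± 0.16, adjusted p = 3.71e-05), and the fraction arrays without LPS overlapped the 2709 to 4043 of vehicle cells given LPS.

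Dusp6 had 1355, 1474 and 1128 with the fraction, all above the 828, 1015 and 796 of vehicle, a rise of 1.5-fold (0.58 ± 0.16, adjusted p = 0.00866). Dusp5 had 349, 344 and 217 with the fraction and 160.4, 266 and 183 with vehicle. The Dusp5 groups overlapped, the difference was 0.58 ± 0.20 (adjusted p = 0.0293), and it did not pass after quantile normalization (0.47, adjusted p = 0.0809) or without any 1 of vehicle arrays 1 and 3 and fraction arrays 1 and 2 (adjusted p = 0.142, 0.0912, 0.126 and 0.125).

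Dusp2 fell with the fraction, from 526, 702 and 672 to 272, 341 and 400.1. No fraction array reached a vehicle array, and the fall was 1.88-fold (-0.91 ± 0.18, adjusted p = 0.000711). Dusp14 fell from 274, 271 and 180.0 to 95.4, 104 and 66.8, again without overlap, which was 2.72-fold (-1.44 ± 0.34, adjusted p = 0.00316). Dusp1 had 1250.0, 1584 and 1034 against 736, 972 and 706. Its groups did not overlap either, but the difference did not pass (0.67 ± 0.38, interval -0.11 to 1.46, adjusted p = 0.193). It passed with only the compared arrays fitted (adjusted p = 0.0133). Dusp7, Dusp8, Dusp10 and Dusp16 gave adjusted p of 0.151, 0.304, 0.628 and 0.848.

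In the presence of LPS, no member was higher with the fraction than with vehicle and 2 were lower, at a background of 11.1% higher and 12.7% lower. The members' median was -0.01, beside -0.02 for all genes. Dusp2 had 2863, 3711 and 2851 with fraction and LPS, against 4696, 5864 and 5628 with vehicle and LPS. The groups were apart, and Dusp2 was 1.72-fold lower (-0.79 ± 0.18, adjusted p = 0.00354). Dusp2 was thus lower with the fraction both with and without LPS, although LPS raised it 9.34-fold within fraction cells.

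Dusp1 had 1072, 1261 and 1001 with fraction and LPS, against 1034, 4906 and 3627 with vehicle and LPS. The fraction arrays overlapped array 1 of the vehicle group alone, and Dusp1 was 2.39-fold lower (-1.25 ± 0.38, adjusted p = 0.0192). The call was lost without vehicle array 2 (-0.81, adjusted p = 0.131) or 3 (-1.03, adjusted p = 0.0884) and without fraction array 1 or 3 (adjusted p = 0.0527 and 0.0663). Without vehicle array 1 the difference was -1.93 (adjusted p = 1.67e-05). Dusp4 had 4084, 4786 and 4749.8 against 2709, 4043 and 3747, which did not overlap and did not pass (0.39 ± 0.16, adjusted p = 0.0768). It passed with the replicate number as a block (adjusted p = 0.0174) and without vehicle array 2 (0.51, adjusted p = 0.041). Dusp5, Dusp6 and Dusp14 had differences of 0.19, 0.28 and -0.38 (adjusted p = 0.549, 0.224 and 0.482).

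**Figure D4:**
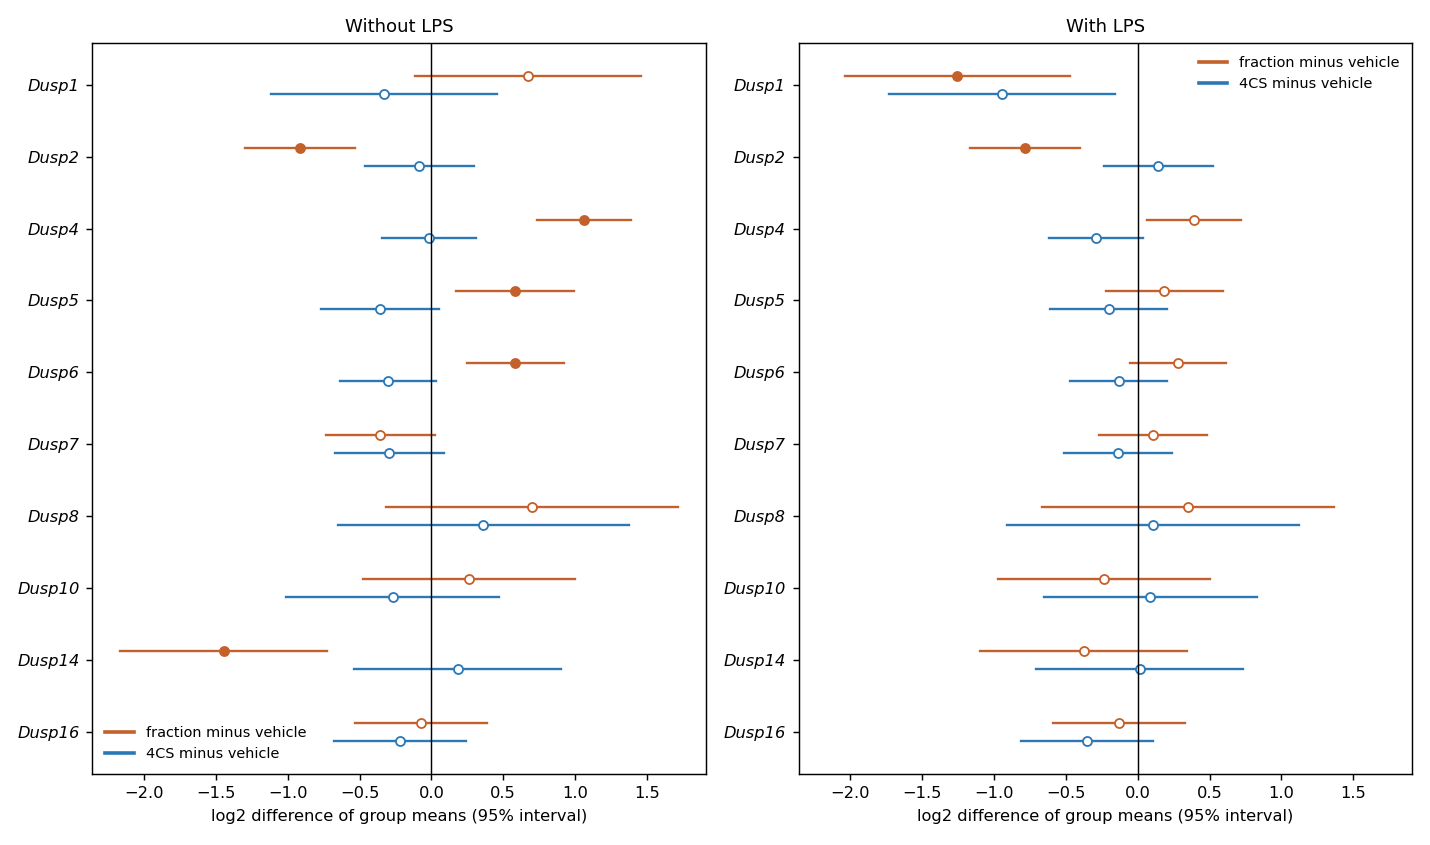
Log2 differences from vehicle are plotted for the fraction (orange) and 4CS (blue), without LPS on the left and with LPS on the right, with 95% intervals and filled points for an adjusted p under 0.05. Dusp4 is at 1.06 and Dusp14 at -1.44 for the fraction without LPS, Dusp2 is below 0 for the fraction on both sides, and no 4CS point is filled.

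No member was called between 4CS and vehicle. Without LPS, limma called 0% of all genes (565 had an unadjusted p under 0.05), and with LPS 0% (934 had one). For the members the adjusted p was 0.999 for each without LPS. The intervals were -0.34 to 0.31 for Dusp4, -0.46 to 0.30 for Dusp2, -0.77 to 0.05 for Dusp5, -0.64 to 0.03 for Dusp6 and -0.68 to 0.24 for Dusp16. They were wider for Dusp1 (-1.11 to 0.46), Dusp8 (-0.65 to 1.38), Dusp10 (-1.01 to 0.47) and Dusp14 (-0.54 to 0.91). Dusp2 and Dusp4 were the members whose interval held no change of 1.5-fold or more in either direction.

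With LPS, Dusp1 was the member furthest from 0. It had 972, 2035 and 1298 with 4CS and 1034, 4906 and 3627 with vehicle, which overlapped (-0.95 ± 0.38, interval -1.73 to -0.16, adjusted p = 0.589). Without vehicle array 1 it was called (-1.62, adjusted p = 0.00213), as it was without the 6 arrays numbered 1 (-1.38, adjusted p = 0.0346). Without vehicle array 2 it was at -0.50 (adjusted p = 0.978). Dusp2 had 5255, 6456 and 6161 with 4CS and LPS, which overlapped the 4696 to 5864 of the vehicle arrays (0.14 ± 0.18, interval -0.24 to 0.53, adjusted p = 0.866).

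The fraction and 4CS were also set against each other, at the doses above, which differ in kind and amount. Without LPS, 4 members were higher with the fraction and 2 lower, at a background of 17% higher and 15.4% lower (14.5% and 18.4% after median centring). Dusp4 (1.08 ± 0.16, adjusted p = 3.07e-05), Dusp5 (0.94 ± 0.20, adjusted p = 0.00104), Dusp6 (0.89 ± 0.16, adjusted p = 0.000284) and Dusp1 (1.00 ± 0.38, adjusted p = 0.0475) were higher. Dusp1 was at 1034 to 1584 with the fraction and 531 to 721 with 4CS. It did not pass after median centring (0.95, adjusted p = 0.0604) or with any 1 of the 6 compared arrays left out (adjusted p from 0.0504 to 0.159). Dusp14 was 3.09-fold lower with the fraction (-1.63 ± 0.34, adjusted p = 0.00117) and Dusp2 1.78-fold lower (-0.83 ± 0.18, adjusted p = 0.00157).

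With LPS, 1 member was higher and 1 lower, at a background of 12% higher and 16.2% lower. Dusp4 had 4084, 4786 and 4749.8 with the fraction and 2618, 2878 and 2982 with 4CS, without overlap (0.68 ± 0.16, adjusted p = 0.00276). Dusp2 had 2863, 3711 and 2851 against 5255, 6456 and 6161, also without overlap, and was 1.9-fold lower (-0.93 ± 0.18, adjusted p = 0.000751). Dusp6 did not pass (0.42 ± 0.16, adjusted p = 0.06) but did with the replicate number as a block (adjusted p = 0.0182). The comparisons with vehicle and with 4CS share the fraction arrays, so they are not independent of each other.

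Across the 18 arrays the members fell into like and unlike pairs, given here as a description, since the arrays share groups and scaling. The highest Pearson correlations of log2 signals were 0.945 between Dusp5 and Dusp16, 0.915 between Dusp2 and Dusp5 and 0.908 between Dusp2 and Dusp16. Dusp4 and Dusp6 stood at 0.824 and Dusp7 and Dusp14 at 0.739.

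Outside the family, the genes most like Dusp5 were Cd40, a costimulatory receptor (0.987), and Phlda1 (0.986). Those most like Dusp2 were Socs3, an inhibitor of cytokine receptor signalling (0.983), and Ier3, an immediate-early gene (0.982). Dusp4 was most like the transcription factor gene Klf6 (0.97) and the tyrosine phosphatase gene Ptpn22 (0.969), and Dusp16 like Car13 (0.968) and Pdpn (0.957). Mean log2 signals of Klf6 were 9.03 with vehicle, 10.82 with the fraction, 8.80 with 4CS, 10.28 with vehicle and LPS, 10.85 with fraction and LPS and 9.71 with 4CS and LPS. Like those of Dusp4, they were higher with the fraction alone than with vehicle alone.

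Dusp14 was most like Tamm41 (0.973) and E2f3, a cell cycle transcription factor gene (0.941), and Dusp7 like Ctdsp1 (0.965) and Fancf (0.951). The best matches were looser for Dusp6 (2610316D01Rik at 0.911 and Eml2 at 0.899), Dusp1 (Pi4k2a at 0.888 and Ifitm6 at 0.875) and Dusp8 (Washc4 at 0.867 and Rnmt at 0.843). For Dusp10 they were Aanat at 0.734 and Hdgfl1 at 0.719.

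The other genes of the pathway were counted by list, and each count is to be read against the shares of all genes called. For LPS in vehicle cells these were 10.1% higher and 21.8% lower. For the fraction they were 15.9% and 15.3% without LPS and 11.1% and 12.7% with it. Of 7 MAP kinase genes tested (14 listed), 0 rose and 2 fell with LPS in vehicle cells, beside 10.1% and 21.8% of all genes. Mapk14, which encodes p38 alpha, fell by 0.75 on the log2 scale (adjusted p = 4.68e-05), from 2390 to 2970 down to 1440 to 1910. Mapk9, the gene of a JNK, was at -0.34 ± 0.11 (adjusted p = 0.0227, and 0.276 after median centring). With the fraction alone, Mapk7, which encodes ERK5, was higher (0.42 ± 0.16, adjusted p = 0.0457) and 0 fell, beside 15.9% and 15.3%. Mapk7 was called in 6 of 18 alternatives, and not after quantile normalization (0.32, adjusted p = 0.111) or without any 1 of the 6 arrays. With LPS present 0 did either.

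Of 6 MAP kinase kinase genes (7 listed), 1 rose with LPS in vehicle cells, Map2k1, an ERK pathway kinase gene (0.38 ± 0.09, adjusted p = 0.00254), and 0 fell. Map2k3, which encodes a kinase that activates p38, was lower with the fraction. Its highest signal was 3240 with the fraction and its lowest 4360 with vehicle (-0.51 ± 0.08, adjusted p = 0.000109). With LPS it had 2160 to 2550 against 4280 to 4550 (-0.91 ± 0.08, adjusted p = 1.89e-07), again without overlap.

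Among 15 MAP kinase kinase kinase genes (17 listed), 2 rose and 5 fell with LPS in vehicle cells, or 2 and 2 after median centring. Map3k8, a kinase gene of the ERK branch of Toll-like receptor signalling, rose by 1.02 ± 0.17 (adjusted p = 0.000138), and Map3k5, which encodes a stress-activated kinase of the JNK and p38 pathways, fell by 1.60 (adjusted p = 9.63e-08). With the fraction Map3k5 was higher and Map3k8 lower than with vehicle. Map3k5 had 1380 to 1790 with the fraction against 487 to 550 with vehicle (1.62 ± 0.15, adjusted p = 7.83e-08). With LPS it had 852 to 979 against 143 to 201 (2.46 ± 0.15, adjusted p = 9.34e-10), and the fraction arrays with LPS also lay above the vehicle arrays without it.

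Map3k8 had 265 to 437 with fraction and LPS, against 714 to 1060 with vehicle and LPS (-1.29 ± 0.17, adjusted p = 2.13e-05). Without LPS its difference was -0.56 ± 0.17 (adjusted p = 0.0181, and 0.0533 to 0.0886 without any 1 of vehicle arrays 1 and 3 and fraction arrays 1 and 2). In all, the fraction raised 3 and lowered 2 of this list without LPS, beside 15.9% and 15.3% of all genes, and raised 1 and lowered 2 with it, beside 11.1% and 12.7%. Of the 3 raised, Map3k1 and Map3k2 were not called after quantile normalization (adjusted p = 0.0527 and 0.0537) or without either of vehicle arrays 1 and 2 or fraction array 3. Map3k2 was not called without fraction array 1 either. Map3k11, lowered in both, lost its call in 2 of 18 alternatives without LPS and 5 of 18 with it.

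Of 7 genes of kinases that MAP kinases activate (10 listed), 1 rose and 2 fell with LPS in vehicle cells, beside 10.1% and 21.8% of all genes. Rps6ka5, whose product phosphorylates CREB and histones, fell from 452 to 473 down to 67.8 to 119 (-2.34 ± 0.20, adjusted p = 3.34e-08). Mapkapk2, a p38-activated kinase gene, rose by 0.64 ± 0.13 (adjusted p = 0.000655). With the fraction, Mknk1, which encodes a kinase of the translation factor eIF4E, stood at 2150 to 2540 against 719 to 885 with vehicle (1.54 ± 0.13, adjusted p = 5.04e-08), or 0.84 over the mean of its probe sets (adjusted p = 5.54e-05). With LPS it was at 1440 to 1790 against 776 to 942 (0.88 ± 0.13, adjusted p = 8.15e-05), or 0.31 over the mean of its probe sets (adjusted p = 0.0874). Its relative Mknk2 was lower with the fraction, at -0.56 ± 0.16 without LPS and -0.85 ± 0.16 with it. The call without LPS was lost without vehicle array 1 (-0.39, adjusted p = 0.0817) and without the 6 arrays numbered 1 (-0.34, adjusted p = 0.0509).

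Of 15 immediate-early and ERK-induced genes (16 listed), 10 rose and 1 fell with LPS in vehicle cells, with a median difference of 1.18. Phlda1 (3.48 ± 0.20, adjusted p = 1.83e-10), the growth regulator Myc (3.46 ± 0.35, adjusted p = 3.64e-07) and the transcription factor gene Egr1 (1.75 ± 0.27, adjusted p = 5.76e-05) rose, and Etv5, a target of ERK signalling, fell by 1.67 (adjusted p = 1.92e-08). With the fraction alone 3 rose and 1 fell, and Etv5 was higher, at 2000 to 2360 against 1080 to 1330 (0.89 ± 0.14, adjusted p = 5.56e-05). Myc was higher too (1.28 ± 0.35, adjusted p = 0.00842), but not without vehicle array 1 (0.72, adjusted p = 0.0556). With LPS, 2 were higher and 3 lower with the fraction, and Fosl2, an AP-1 subunit gene, was at 428 to 511 against 555 to 1410 (-1.14 ± 0.24, adjusted p = 0.00195).

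Among 6 Sprouty and Spred genes (7 listed), inhibitors of the ERK pathway, 1 rose and 1 fell with LPS in vehicle cells, beside 10.1% and 21.8% of all genes. Spry2 rose (0.44 ± 0.15), but lost its call in 6 of 19 alternatives, among them without vehicle arrays 1 or 2 (adjusted p = 0.0985 and 0.0983) and vehicle arrays 2 or 3 with LPS (adjusted p = 0.128 and 0.162). Spred2 was at 1040 to 1190 with LPS against 1890 to 2190 without (-0.91 ± 0.10, adjusted p = 2.14e-06). The fraction changed 0 of them, with or without LPS. Of 9 other dual-specificity phosphatase genes (15 listed), 1 rose and 2 fell with LPS in vehicle cells, or 1 and 0 after median centring. Dusp11, which encodes an RNA phosphatase, rose with LPS in vehicle cells (0.43 ± 0.09) and with the fraction without LPS (0.49 ± 0.09). Its call for LPS was lost over the mean of its probe sets (adjusted p = 0.141). For LPS in fraction cells 0 of the 9 rose and 4 fell, beside 11.5% and 25.8% of all genes. Among these, Dusp22 lost its call after median centring (-0.12, adjusted p = 0.351). For the fraction against vehicle with LPS, 0 rose and 0 fell, beside 11.1% and 12.7%.

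Of 7 genes of other phosphatases that act on MAP kinases (9 listed), 1 rose and 2 fell with LPS in vehicle cells, or 2 and 1 after median centring. Ppm1d, whose product acts on p38, fell with LPS (-0.62 ± 0.10, adjusted p = 5.65e-05). It was also lower with the fraction, at -0.38 ± 0.10 without LPS and -0.33 ± 0.10 with it, and both fraction calls were lost over the mean of its probe sets (adjusted p = 0.506 and 0.589).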

How the data were processed

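Total RNA from RAW264.7 cells was hybridized to Affymetrix Mouse Genome 430 2.0 arrays, 18 in all. The deposited values are linear signal intensities from MAS5, per the submitters' processing notes, with the version not given in the sources used here. The 2% trimmed mean was 500.0 on each array. Of 45101 probe sets, 64 controls were dropped, 34945 had a single symbol, 932 several and 9160 none, and 34741 were matched to RefSeq by Entrez ID. Intensities under 1 were set to 1 (0.824% of values), taken to log2, and probe sets at or above the array median on at least 3 arrays were kept (25612, of which 21553 had 1 symbol). The brightest stood for each gene.

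Differences came from limma 3.58.1 in R 4.3.3, with 1 mean per group, a trended eBayes prior and 12 residual degrees of freedom, two-sided tests and Benjamini-Hochberg adjustment over 11547 genes at 0.05. Values for the other probe sets of Dusp7 and Dusp16 came from a separate fit of the same kind, adjusted over the 25612 kept probe sets. Intervals are 95%. On simulated data for LPS in vehicle cells (11547 genes), the fit called 94 of 100 genes changed by 2 on the log2 scale, 67 of 100 changed by 1 and 7 of 11347 unchanged. The simulated noise was normal and drawn independently for each array. Far fewer genes were changed in it than the 31.9% called in the real comparison, so these rates may not carry over to these data. Where a group lay under the array median, no fold is given. The number of arrays limits the precision. The members, lists and tests were chosen with earlier results of these data known. Named list genes were up to 4 per list with the largest change past the threshold, not all of which are given. Map3k2 was outside this rule and was chosen after its values were seen. Etv5 was outside it for LPS in vehicle cells, where Ier3 changed more. The genes like each member were the 2 with the highest correlation. Alternatives were other scalings, filters, floors, probe set choices and fits, a replicate block and fewer arrays.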

Additional observations from a re-analysis of the deposited data

How the results depend on the processing

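Of the members' single differences under the alternatives, 2192 of 2276 stayed on their side of the threshold, 63 lost a call, 21 gained one and 0 called differences turned. Of the 2192, 62 changed sign, none of them called. A further limma fit tested whether a change exceeded 1.5-fold, which asks more than an observed change of that size. In it, members called went from 8 to 5 for LPS in 4CS cells. They went to 0 for the fraction against vehicle without LPS (from 5) and with LPS (from 2). They also went to 0 for the fraction against 4CS without LPS (from 6) and with LPS (from 2). For LPS in vehicle cells, Dusp1 (adjusted p = 0.0646) and Dusp4 lost their calls, and calls over all genes went from 3680 to 554. For LPS in fraction cells, Dusp7 lost its call (adjusted p = 0.129). The fraction against vehicle with LPS kept 1 call with no eBayes trend and 1 with only the compared arrays fitted, where the fraction against 4CS with LPS had 4. With each array left out in turn, calls ranged from 5 to 7 for LPS in 4CS cells, 1 to 2 for the fraction and 0 to 1 for 4CS against vehicle with LPS, 0 to 2 for the fraction by LPS interaction and 7 to 7 for LPS in vehicle cells. Without the 6 arrays numbered 1, 4CS against vehicle with LPS and the fraction by LPS interaction each had 1 call (Dusp1). With low signals set to the array median the interaction had 1 (Dusp14, 1.34, adjusted p = 0.0352).

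The fraction by LPS interaction had 247 calls over all genes. It had 125 with no eBayes trend, 141 with only the compared arrays fitted and 7 in the test against 1.5-fold. With the replicate block it had 467 calls over all genes and 2 member calls. The block also added Dusp6 for LPS in vehicle cells (adjusted p = 0.043), Dusp14 for LPS in fraction cells (adjusted p = 0.0461), Dusp4 for the fraction against vehicle with LPS and Dusp6 for the fraction against 4CS with LPS, and removed none. Deviations from group means correlated at 0.018 to 0.17 between arrays of the same number (median 0.088, 9 of 45 pairs over 0.1). Between others they correlated at -0.133 to 0.052 (median -0.037). Of the 18 arrays, 18 correlated best with their own number. The main fit did not use the numbers, so whatever arrays of the same number share stayed in its error. A 75th percentile filter left 6 members tested. Signal over background limits Dusp8, Dusp10 and Dusp14.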
